A study of Mus musculus with 20 samples.

Results

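The genes examined here carry and regulate the parasympathetic potassium current of the heart. They are Chrm2, Kcnj3, Kcnj5, Rgs6, Gnb5 and Rgs4, 6 of the 55335 genes in the count table. They were picked by symbol from an earlier look at these data, in which Kcnj5 and Rgs6 were lower in the knockout. The knockout values below are therefore a description of how the genes were chosen, and only the isoproterenol comparisons are tested for them. Those comparisons use the same libraries, so that they are not fully independent of the choice. All 6 genes passed the filter on low counts, which 14878 genes passed.

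Acetylcholine released by the vagus nerve binds the M2 muscarinic receptor, encoded by Chrm2, on atrial and nodal myocytes. The receptor activates inhibitory G proteins, and their beta-gamma subunits open an inwardly rectifying potassium channel built from GIRK1 (Kcnj3) and GIRK4 (Kcnj5), which slows the heart. Regulators of G protein signalling (RGS proteins) end the signal by speeding GTP hydrolysis. RGS6 works as a dimer with the atypical beta subunit Gβ5 (Gnb5), and RGS4 is a smaller RGS protein that acts without it.

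Hearts came from mice of the C57BL/6N strain, 3 to 5 months of age, either wild type (WT) or knocked out for Ogfod1 (KO), and were compared in 4 groups of 5 libraries. OGFOD1 is an oxygenase that hydroxylates a prolyl residue of a ribosomal protein. Vehicle mice of either genotype received phosphate-buffered saline with sodium ascorbate from an osmotic minipump for 2 weeks. Isoproterenol mice of either genotype received the same solution with isoproterenol, a beta-adrenergic agonist that acts against the vagal pathway in the heart. All mice were fed the NIH-31 diet. The labels do not say how the knockout was made, or that each library came from a different mouse, so that the p-values below measure the spread between libraries.

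The libraries held 14609808 to 43671055 assigned reads each. Levels are given in CPM, counts scaled to a common library size. The targeted gene Ogfod1 measured 16.9 to 21.8 CPM in the 10 WT libraries and 2.39 to 4.13 CPM in the 10 KO libraries. KO isoproterenol replicate 5 and WT vehicle replicate 2 were the libraries least like the others of their own groups, with a mean correlation of log2 CPM of 0.974 and 0.980 against 0.981 to 0.987 for the rest. Counts of calls among the 6 genes and the other pathway genes are also given without both where that changes them.

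The powder came from whole hearts, so that atrial, nodal and ventricular RNA were mixed. Markers of cardiac muscle were abundant, at a summed 47671 to 71293 CPM over 8 genes. All 9 atrial markers were detected, summed to 696 to 911 CPM in WT vehicle, 854 to 987 in WT isoproterenol, 932 to 1167 in KO vehicle and 789 to 1082 in KO isoproterenol libraries. Of 8 nodal markers 7 were tested, and their sum was 40.9 to 50.7, 29.6 to 45.8, 34.8 to 41.1 and 35.5 to 45.3 CPM in the same order. Isl1, a transcription factor of the sinus node, had 0 counts in 8 libraries and at most 12. Cholinergic nerve genes were nearly absent, with 0 to 2 counts of Chat, which encodes the enzyme that makes acetylcholine, and 0 or 1 count of its vesicular transporter Slc18a3. In such bulk RNA, fewer cells of a type and less RNA per cell cannot be told apart.

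Per length, the receptor was the most abundant of the genes and Rgs6 the least. On the scale of CPM per kilobase of exon, the mean level over 20 libraries was 18.8 for Chrm2, 11.8 for Kcnj3, 6.76 for Kcnj5, 3.08 for Gnb5, 2.87 for Rgs4 and 1.47 for Rgs6. Each gene lay above the next in 20 of 20 libraries, except that Gnb5 lay above Rgs4 in 14 of 20. The order of that pair did not hold beyond the spread of the libraries. The place of Rgs6 rests on the length used, which joins all annotated exons: 10023 bases for Rgs6, 3115 for Gnb5 and 3098 for Rgs4. In CPM alone Rgs6 averaged 14.8, above Gnb5 at 9.61 and Rgs4 at 8.88. Raw counts were 1602 to 5022 for Chrm2 but 91 to 450 for Rgs4 and 128 to 364 for Gnb5. The other GIRK genes were at the floor. Kcnj6 (GIRK2) had 0 counts in every library and Kcnj9 (GIRK3) at most 3.

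**Figure D1:**
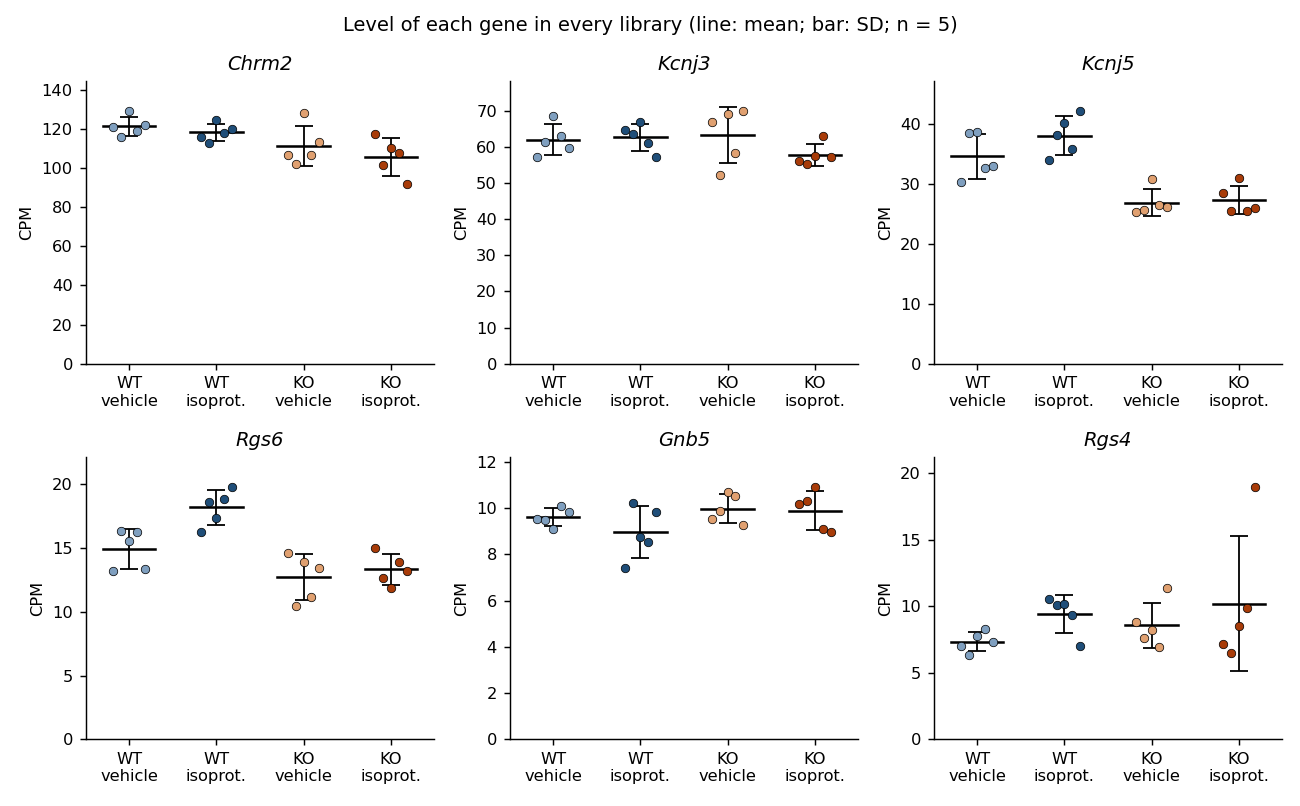
Level of each gene in CPM (vertical axes, from 0) in the 5 libraries of each group; points are libraries, lines group means and bars SD. Kcnj5 libraries of the knockout lie at 25.3 to 30.9 CPM and WT libraries at 30.2 to 42.1 CPM, while Kcnj3 spreads over 52.2 to 69.9 CPM in all groups, and Rgs4 has 1 library at 18.9 CPM.

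Chrm2 (ENSMUSG00000045613; GRCm38 chromosome 6, 36388084 to 36528414, plus strand) is the receptor gene. It measured 121, 116, 129, 119 and 122 CPM in WT vehicle and 116, 113, 125, 118 and 119.9 CPM in WT isoproterenol libraries. The knockout libraries measured 107, 102, 128, 106 and 113 CPM under vehicle and 117, 102, 110.1, 108 and 91.6 CPM under isoproterenol. The WT groups nearly coincide, and the knockout groups overlap with them but are more spread. Of 10 KO libraries, 9 lay below the WT mean and 7 below the lowest WT library. The log2 difference between genotypes was −0.12 (SE 0.0658) under vehicle, −0.16 (SE 0.0660) under isoproterenol and −0.14 (SE 0.0466) averaged over treatments. Its exons share 142 bases with the lincRNA 9330158H04Rik on the opposite strand, which had 105 to 319 counts. How the counting treated strand is not given in the sources used here, so that some reads of the 2 genes may be mixed.

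Kcnj3 (ENSMUSG00000026824; GRCm38 chromosome 2, 55435970 to 55598145, plus strand) encodes the GIRK1 subunit. Its group means were 62.0 ± 4.29 CPM in WT vehicle, 62.7 ± 3.70 in WT isoproterenol, 63.4 ± 7.74 in KO vehicle and 57.8 ± 3.03 in KO isoproterenol (SD, n = 5 each). The groups overlap in every pairing. The log2 difference between genotypes was 0.03 (SE 0.0721) under vehicle and −0.12 (SE 0.0724) under isoproterenol. The exons, 5215 bases in all, share 1621 bases with the lincRNA Gm26794 on the opposite strand, which is not in the count table. As the strand setting is not given, some reads of Gm26794 may be among the Kcnj3 counts.

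Kcnj5 (ENSMUSG00000032034; GRCm38 chromosome 9, 32314707 to 32344350, minus strand) encodes GIRK4, the partner subunit. WT vehicle libraries measured 30.2, 38.4, 38.6, 32.7 and 32.9 CPM, and WT isoproterenol libraries 33.9, 38.2, 40.0, 35.7 and 42.1 CPM. The knockout libraries measured 25.3, 25.6, 30.8, 26.4 and 26.1 CPM under vehicle and 28.4, 25.5, 30.9, 25.5 and 25.9 CPM under isoproterenol. Under isoproterenol all 5 KO libraries lay below all 5 WT libraries, which was so in the same direction for 1.13% of genes tested. Under vehicle 4 of 5 did, full separation in that direction being found for 1.03% of genes, and KO replicate 3, at 30.8 CPM, lay just above the lowest WT library. The group means were 34.6 ± 3.74 and 38.0 ± 3.27 CPM in WT against 26.8 ± 2.24 and 27.2 ± 2.37 CPM in KO (SD, n = 5). The log2 difference was −0.37 (SE 0.0785) under vehicle, −0.48 (SE 0.0787) under isoproterenol and −0.42 (SE 0.0556) averaged, or 0.746 times the WT level. Over 28 alternatives of processing the averaged difference stayed between −0.45 and −0.40.

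The 2 subunits of the channel are transcribed from start regions of like base composition, shown here because their transcripts differed in the knockout values. The 250 bases before the RefSeq start (GRCm38.p6) hold 58.0% G and C at Kcnj5 (chr9:32344345-32344594, minus strand) and 58.4% at Kcnj3 (chr2:55435720-55435969, plus strand), with 7 CpG each. The last 6 bases of the Kcnj5 window are exon in the GENCODE annotation. Capitals mark matches to the GC box GGGCGG and to the CCAAT box, on either strand, the latter seen at Kcnj3 as ATTGG.
Kcnj5: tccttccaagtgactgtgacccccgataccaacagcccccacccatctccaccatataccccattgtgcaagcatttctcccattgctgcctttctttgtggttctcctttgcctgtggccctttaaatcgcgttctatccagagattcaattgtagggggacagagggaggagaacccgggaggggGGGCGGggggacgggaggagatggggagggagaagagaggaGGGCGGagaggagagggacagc
Kcnj3: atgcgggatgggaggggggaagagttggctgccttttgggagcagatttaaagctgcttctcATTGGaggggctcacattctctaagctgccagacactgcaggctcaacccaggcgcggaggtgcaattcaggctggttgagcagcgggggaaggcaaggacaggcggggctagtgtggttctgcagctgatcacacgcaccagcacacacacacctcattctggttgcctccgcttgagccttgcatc
Kcnj5 has GC boxes starting 63 and 22 bases before the start and no CCAAT box, while Kcnj3 has a CCAAT box starting 188 bases before it and no GC box. Of 32851 windows of this length, 32.7% hold a GC box and 33.8% a CCAAT box. The TATA box TATAAA (12.4% of windows) is in neither, and the cAMP response element TGACGTCA (1.55% of windows) is in none of the 6 genes' windows. The Rgs6 window (chr12:82617249-82617498) lies inside the GENCODE gene, and 135 of its 250 bases are exon there. None of these motifs overlap, and a match is a description of the letters only.

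Rgs6 (ENSMUSG00000021219; GRCm38 chromosome 12, 82588292 to 83162056, plus strand) encodes the RGS protein of this channel. WT vehicle libraries measured 13.2, 16.4, 15.6, 16.2 and 13.3 CPM, and WT isoproterenol libraries 16.3, 18.6, 17.4, 18.9 and 19.8 CPM. The knockout libraries measured 14.6, 10.4, 13.9, 11.2 and 13.4 CPM under vehicle and 15.0, 12.6, 11.8, 13.9 and 13.2 CPM under isoproterenol. Under isoproterenol no KO library reached the lowest WT library, beside 1.13% of genes that separate in that direction, while under vehicle 3 of 5 KO libraries lay within the WT range. The group means were 14.9 ± 1.57 and 18.2 ± 1.36 CPM in WT against 12.7 ± 1.81 and 13.3 ± 1.21 CPM in KO (SD, n = 5). The log2 difference between genotypes was −0.23 (SE 0.0929) under vehicle, −0.45 (SE 0.0927) under isoproterenol and −0.34 (SE 0.0656) averaged, or 0.791 times the WT level. Over 28 alternatives the averaged difference stayed between −0.37 and −0.31.

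Gnb5 (ENSMUSG00000032192; GRCm38 chromosome 9, 75306288 to 75345876, plus strand) encodes Gβ5, the obligate partner of RGS6. Its group means were 9.61 ± 0.378 CPM in WT vehicle, 8.95 ± 1.13 in WT isoproterenol, 9.98 ± 0.614 in KO vehicle and 9.88 ± 0.833 in KO isoproterenol (SD, n = 5). All groups overlap, and the log2 difference between genotypes was 0.05 (SE 0.0880) under vehicle and 0.14 (SE 0.0894) under isoproterenol. Intervals of 2 SE for Gnb5 ran from −0.13 to 0.23 under vehicle and from −0.04 to 0.32 under isoproterenol. Both include 0, so that a direction opposite to that of Rgs6 was not shown.

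Rgs4 (ENSMUSG00000038530; GRCm38 chromosome 1, 169741477 to 169747642, minus strand) measured 6.99, 6.36, 7.74, 8.29 and 7.28 CPM in WT vehicle and 10.6, 10.1, 10.2, 9.32 and 6.99 CPM in WT isoproterenol libraries. The knockout libraries measured 8.84, 7.58, 8.19, 6.91 and 11.3 CPM under vehicle and 7.18, 6.48, 8.51, 9.88 and 18.9 CPM under isoproterenol. The last library, KO isoproterenol replicate 5, stands far above the others of its group. It also had a summed 2120 CPM over 10 smooth muscle and pericyte markers, against 1126 to 1159 CPM in the other 4 libraries of that group, and 1610 CPM over 8 fibroblast markers against 607 to 744 CPM. The log2 difference between genotypes under isoproterenol was 0.13 (SE 0.231), and −0.24 without that library. Across 20 libraries Rgs4 correlated with the summed smooth muscle and pericyte markers at Pearson r = 0.79 and Spearman rho = 0.54, as the plot of both measures shows. The part of these cells in the Rgs4 values was not tested.

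**Figure D2:**
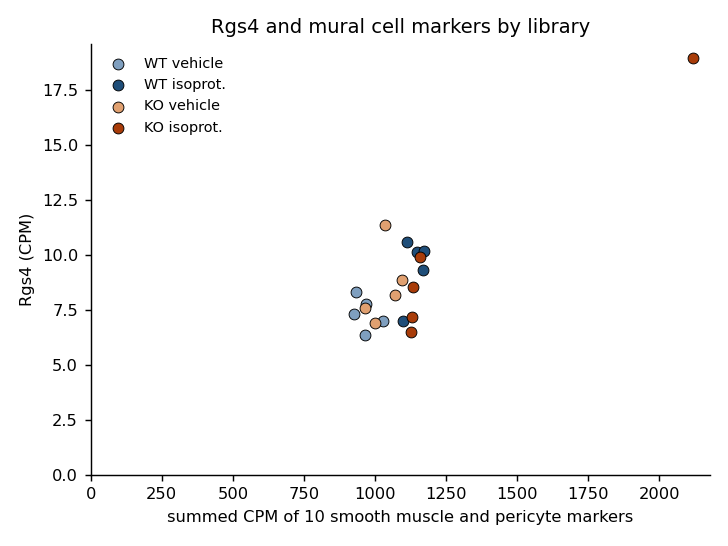
Rgs4 in CPM (vertical axis) against the summed CPM of 10 smooth muscle and pericyte markers (horizontal axis), 1 point per library coloured by group, both axes from 0. KO isoproterenol replicate 5 lies alone at 2120 and 18.9 CPM, and the other 19 libraries lie between 925 and 1171 CPM of markers and 6.36 and 11.3 CPM of Rgs4.

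Kcnj5, Kcnj3 and Chrm2 are enriched in atrial and nodal myocytes, and the markers of those cells are given beside them. The 9 atrial markers had a median log2 difference between genotypes of 0.24 under vehicle and −0.00 under isoproterenol, and 0.09 averaged. The 7 nodal markers had medians of −0.00, 0.22 and 0.12 in the same comparisons. The 8 general cardiomyocyte markers had medians of −0.06, −0.09 and −0.08. Across 20 libraries the Pearson correlation with the summed atrial markers was −0.05 for Chrm2, 0.06 for Kcnj3 and −0.33 for Kcnj5. With the summed nodal markers it was −0.07, 0.08 and −0.22, and with the summed cardiomyocyte markers 0.64, 0.25 and 0.36. The part of a shift in cell types in the knockout values of the 6 genes was not tested.

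**Figure D3:**
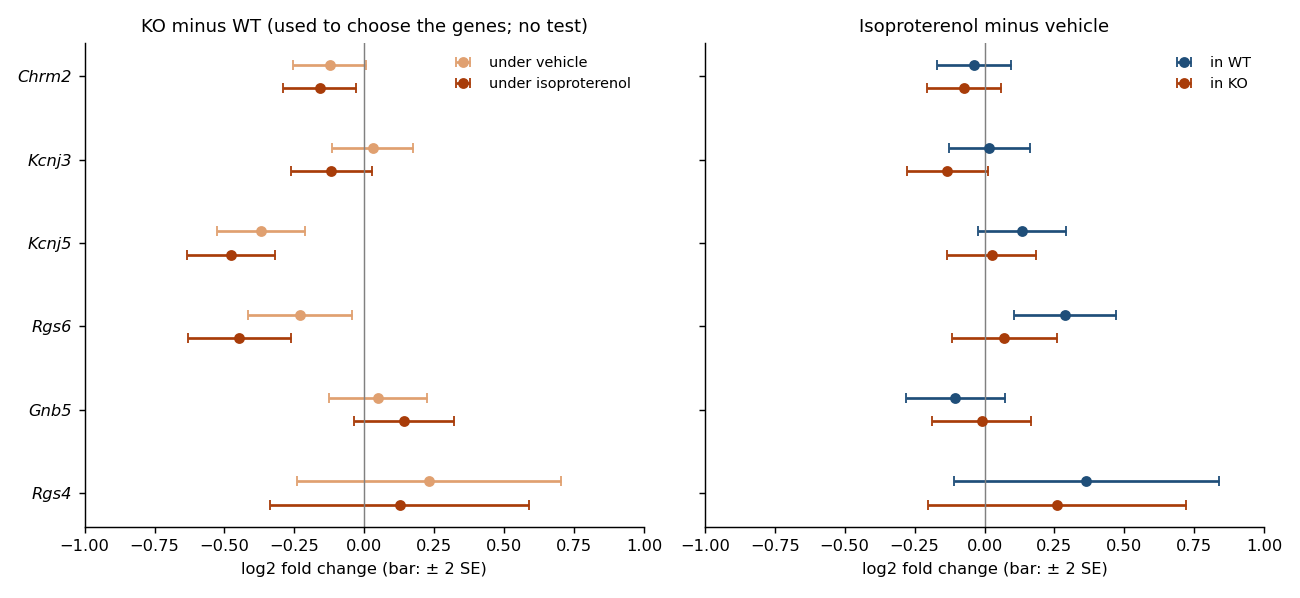
Log2 fold changes of the 6 genes (horizontal axes, points) with bars of 2 SE on either side, for KO against WT under each treatment (left, a description of how the genes were chosen) and isoproterenol against vehicle in each genotype (right). On the right, the bar of Rgs6 in WT, centred at 0.29, is the one that does not reach 0.

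Isoproterenol raised Rgs6 in WT hearts, and no other of the 6 genes passed. Rgs6 changed by a log2 fold of 0.29 (SE 0.0917, unadjusted p = 0.00389, adjusted p = 0.0466; edgeR quasi-likelihood test, Benjamini-Hochberg adjustment over all genes), and each of the 5 treated WT libraries exceeded the mean of the vehicle libraries. That is 1 of 6 genes, beside 8.76% of all genes tested. The 4 treated libraries at 17.4 CPM or more lay above every vehicle library, and the fifth, at 16.3 CPM, lay within their range. The call was close to the threshold. It was lost in 10 of 20 fits that left out 1 library, namely WT vehicle replicate 1, 3 or 5, WT isoproterenol replicate 2, 3, 4 or 5, KO vehicle replicate 3 and KO isoproterenol replicate 2 or 4, with adjusted p up to 0.117 and changes of 0.25 to 0.31. It held in all 9 other alternatives, with adjusted p from 0.0234 to 0.0496. The WT isoproterenol libraries are also those against which the knockout under isoproterenol was described, so that the 2 values share samples. As Rgs6 was chosen as lower in the knockout, high values in those libraries favour both. The test is therefore not fully independent of the choice.

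Markers of several cell types moved with isoproterenol in WT too. The marker lists were chosen with earlier results of these data known. The 5 ventricular markers had a median log2 change of −0.31, with 3 lower, and their sum was 3455 to 4101 CPM under vehicle and 2708 to 3110 CPM under isoproterenol. Of the 8 general cardiomyocyte markers 2 were lower and 0 higher (median −0.10). The sum of those 8 was 65799 to 71293 CPM under vehicle and 58102 to 62131 CPM under isoproterenol. Over all genes 4.12% were called lower. Higher were 4 of 8 macrophage markers (median 0.36), 3 of 8 fibroblast markers (0.27), 3 of 8 endothelial markers (0.17) and 2 of 10 smooth muscle and pericyte markers (0.14). Over all genes 4.64% were called higher. Of the 9 atrial markers 0 were called in either direction in WT (median 0.04), and the 7 nodal markers had a median of −0.15. In KO hearts, isoproterenol lowered 4 of the 9 atrial markers and raised 0 (median −0.12), beside 4.29% of all genes called lower. The 7 nodal markers had a median of 0.10 in KO, with 0 called. The part of these shifts in cell-type markers in the isoproterenol values of Rgs6 and of the other pathway genes was not tested.

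The channel and receptor genes had small isoproterenol differences in WT. In log2 units it was 0.13 for Kcnj5 (SE 0.0779, adjusted p = 0.313), 0.02 for Kcnj3 (SE 0.0723, adjusted p = 0.923) and −0.04 for Chrm2 (SE 0.0659, adjusted p = 0.789). Intervals of 2 SE ran from −0.02 to 0.29, from −0.13 to 0.16 and from −0.17 to 0.09. Gnb5 had −0.10 (SE 0.0892, adjusted p = 0.528). For Rgs4, 4 of 5 isoproterenol libraries lay above every vehicle library and the fifth at 6.99 CPM within their range, and the log2 value was 0.36 (SE 0.237, adjusted p = 0.392). In a fit of the 2 WT groups alone Rgs4 passed (0.36, adjusted p = 0.0457), whereas over all 29 alternatives adjusted p ran from 0.0457 to 0.583.

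In KO hearts 0 of 6 genes passed the edgeR test, beside 9.03% of all genes called. None of the 6 had an unadjusted p under 0.05, beside 23.1% of all genes. DESeq2 and limma-voom also called 0. The log2 value of Rgs6 was 0.07 (SE 0.0938, adjusted p = 0.713), with an interval of 2 SE from −0.12 to 0.26. Kcnj3 had −0.13 (SE 0.0723, adjusted p = 0.279), and each of the 5 treated libraries was under the mean of the vehicle ones. Kcnj5 had 0.03 (SE 0.0792, adjusted p = 0.898), Chrm2 −0.07 (SE 0.0660, adjusted p = 0.551), Gnb5 −0.01 (SE 0.0882, adjusted p = 0.966) and Rgs4 0.26 (SE 0.231, adjusted p = 0.556). Without KO isoproterenol replicate 5 the value of Rgs4 was −0.11. Isoproterenol also lowered 4 of 9 atrial markers in KO and raised 0. The part of that shift in the KO values of the 6 genes was not tested.

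Averaged over genotypes, the log2 value of Rgs6 was 0.18 (SE 0.0656, edgeR unadjusted p = 0.0105, adjusted p = 0.0542) and did not pass. Thus 0 of 6 genes passed, beside 18.8% of all genes. At an unadjusted p under 0.05 was 1 of the 6, beside 31.7% of all genes. DESeq2 also called 0. Rgs6 passed with limma-voom and quality weights (0.21, adjusted p = 0.0234), without KO isoproterenol replicate 5 and WT vehicle replicate 2 together (0.20, adjusted p = 0.0395), and in 6 of 20 fits without 1 library, where the lowest adjusted p was 0.0271. Those 6 fits left out WT vehicle replicate 2 or 4, WT isoproterenol replicate 1, KO vehicle replicate 1 or 3, or KO isoproterenol replicate 3. Adjusted p over all 28 alternatives ran from 0.0234 to 0.114.

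The difference between the isoproterenol responses of KO and WT was tested directly. It was −0.22 on the log2 scale for Rgs6 (SE 0.131, adjusted p = 0.701), −0.15 for Kcnj3 (SE 0.102, adjusted p = 0.732), −0.11 for Kcnj5 (SE 0.111, adjusted p = 0.828), −0.11 for Rgs4 (SE 0.330, adjusted p = 0.958), −0.04 for Chrm2 (SE 0.0932, adjusted p = 0.948) and 0.09 for Gnb5 (SE 0.125, adjusted p = 0.881). None of the 6 passed in edgeR, DESeq2 or limma-voom, and none had an unadjusted p under 0.05, beside 0% of all genes called in edgeR. Over all genes 1142 had an unadjusted p under 0.05, DESeq2 called 5 and limma-voom 0. The rise of Rgs6 in WT was thus not shown to differ from the value in KO. The interval of 2 SE for Rgs6 ran from −0.48 to 0.05.

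Ratios of partner genes within a library do not depend on the scaling of libraries. The ratio of Rgs6 to Gnb5, in counts per exonic length, was 0.429, 0.535, 0.532, 0.499 and 0.420 in WT vehicle and 0.685, 0.564, 0.616, 0.687 and 0.624 in WT isoproterenol libraries. The 2 WT groups do not overlap, and how often other gene pairs separate was not computed. Rgs6 was chosen from these data, so that the WT test is not fully independent of that choice. The log2 ratio rose by 0.40 (exact two-sided permutation test, p = 0.00794, the smallest that 5 against 5 can give; adjusted over 4 ratio tests p = 0.0317). With any 1 WT library left out, adjusted p was 0.0635, the smallest possible while no other ratio test has a small p. The rise was then 0.35 to 0.44. In KO the ratio was 0.398 ± 0.0677 under vehicle and 0.422 ± 0.0599 under isoproterenol (SD, n = 5), a log2 difference of 0.09 (exact permutation p = 0.579, adjusted p = 0.579).

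The ratio of Kcnj5 to Kcnj3 sets the transcripts of the channel subunits against each other, not the proteins. The Kcnj3 counts in it may hold some reads of Gm26794. The ratio was 0.587, 0.698, 0.625, 0.577 and 0.614 in WT vehicle and 0.583, 0.669, 0.665, 0.651 and 0.816 in WT isoproterenol libraries. The knockout libraries had 0.420, 0.546, 0.494, 0.503 and 0.416 under vehicle and 0.564, 0.513, 0.598, 0.451 and 0.505 under isoproterenol. Under vehicle every KO library lay below every WT library, while under isoproterenol the highest KO value, 0.598, exceeded the lowest WT value, 0.583. That genotype difference follows from the choice of Kcnj5 and was not tested. Isoproterenol changed the log2 ratio by 0.12 in WT (exact permutation p = 0.222, adjusted p = 0.296) and 0.15 in KO (p = 0.175, adjusted p = 0.296), neither of which passed.

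**Figure D4:**
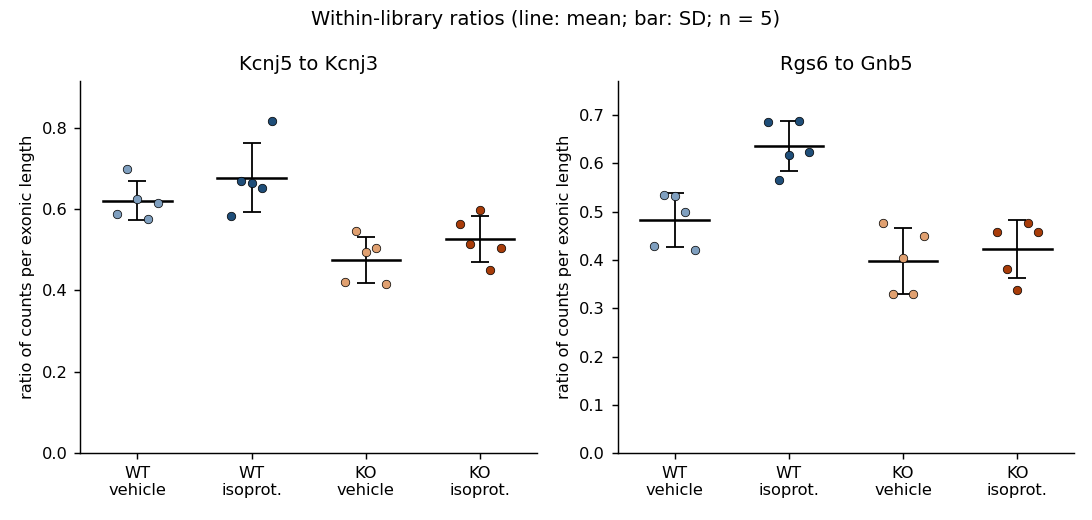
Ratio of counts per exonic length (vertical axes, from 0) of Kcnj5 to Kcnj3 (left) and Rgs6 to Gnb5 (right) in each library by group; lines are means and bars SD. On the right, WT isoproterenol libraries lie at 0.564 to 0.687, above the WT vehicle libraries at 0.420 to 0.535.

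Of 76 other genes of the pathway, in 11 lists by role, 50 were tested. The lists were chosen with earlier results of these data known, so that the counts below are not independent of those results. Isoproterenol in WT raised 6 of the 50 and lowered 5, beside 4.64% and 4.12% of all genes. In KO it raised 5 and lowered 4, beside 4.75% and 4.29%. Averaged over genotypes, 12 rose and 7 fell, beside 9.76% of all genes higher and 9.07% lower. The median log2 change of the 50 was 0.11 in WT, 0.05 in KO and 0.07 averaged, beside 0.00, 0.01 and 0.01 over all genes tested. Without KO isoproterenol replicate 5 and WT vehicle replicate 2, 4 rose and 5 fell in WT, 4 and 4 in KO, and 10 and 7 averaged. Of the 19 genes called on average, 17 kept the call in every alternative that tested them. The others were Arrb1 and Rgs10, which are named because they lost it. The smallest adjusted p among the 50 for the difference between the responses of KO and WT was 0.518 (edgeR), so that no response below was shown to differ between genotypes.

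Among receptors, 2 of 5 were tested, the other muscarinic receptor genes Chrm1, Chrm4 and Chrm5 having at most 5 counts. Adora1, the adenosine A1 receptor, which opens the same channel, had a mean of 13.4 ± 1.34 CPM in WT vehicle and 9.51 ± 1.601 CPM in WT isoproterenol libraries (SD, n = 5). In log2 units it fell by 0.49 in WT (SE 0.140, adjusted p = 0.0291) and by 0.37 averaged (SE 0.101, adjusted p = 0.0106). The WT call was lost without WT vehicle replicate 2 or 5 or WT isoproterenol replicate 1, 3 or 4, with adjusted p up to 0.0834. Among 7 genes of acetylcholine handling, 3 were tested, and Colq, the collagen tail that anchors acetylcholinesterase, fell by 1.76 in WT (SE 0.196, adjusted p = 5.59e-07) and by 1.78 in KO (SE 0.205, adjusted p = 8.58e-07).

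All 5 inhibitory alpha subunit genes and all 4 other beta subunit genes were tested. Gnai2 and Gnai3, which encode inhibitory alpha subunits, rose in KO by 0.23 (SE 0.0638, adjusted p = 0.0181) and 0.38 (SE 0.106, adjusted p = 0.0220). In WT they had 0.11 (adjusted p = 0.292) and 0.24 (adjusted p = 0.165). Gnai2 lost the call in KO without KO vehicle replicate 3 or 4 or KO isoproterenol replicate 2 (adjusted p up to 0.0714), and Gnai3 in 5 alternatives (adjusted p up to 0.115). Gnb3, a beta subunit, fell from 2.97 ± 0.473 to 1.49 ± 0.351 CPM in WT (log2 −1.03, SE 0.171, adjusted p = 1.69e-04) and by 1.69 in KO (SE 0.177, adjusted p = 1.70e-07). Of 11 gamma subunit genes 7 were tested and Gng5 fell in KO by 0.29 (SE 0.0753, adjusted p = 0.0134), with −0.08 in WT (adjusted p = 0.556).

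The close relatives of RGS6 and their anchors are expressed at low counts in the heart. Of 7 genes of the R7 family and its anchors 4 were tested. Rgs7, which like RGS6 pairs with Gβ5, fell by 0.94 in WT (SE 0.248, adjusted p = 0.0157), a call lost without WT vehicle replicate 5 (adjusted p = 0.0512), and had −0.55 in KO (adjusted p = 0.167). Gpr158, an orphan receptor that anchors R7 proteins, rose by 1.15 (SE 0.293, adjusted p = 0.0118) in WT on 6 to 51 counts, with 0.88 in KO (adjusted p = 0.0594). Rgs11 averaged over genotypes rose by 1.34 (SE 0.308, adjusted p = 0.00236) on 2 to 17 counts. Among 14 other RGS genes 10 were tested, and Rgs5, which is also in the pericyte marker list, rose by 0.43 in WT (SE 0.0633, adjusted p = 3.37e-05), with 0.17 in KO (adjusted p = 0.0841).

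Receptor kinases and arrestins switch off activated receptors. Their list, which also holds trafficking genes, had 4 rises and no falls among 7 tested on average, beside 9.76% of all genes higher and 9.07% lower. Arrb1 is 1 of the 4 (0.14, SE 0.0495, edgeR adjusted p = 0.0413). It kept that call in 10 of 20 fits without 1 library and in 5 of 8 other alternatives. Grk5 rose from 19.6 ± 2.53 to 31.3 ± 3.11 CPM in WT (log2 0.68, SE 0.0984, adjusted p = 4.10e-05) and by 0.53 in KO (SE 0.0985, adjusted p = 8.63e-04). Grk3 rose by 0.45 in WT (SE 0.0958, adjusted p = 0.00300), with 0.25 in KO (adjusted p = 0.102). Arrb2 rose by 0.48 in KO (SE 0.109, adjusted p = 0.00430), with 0.25 in WT (adjusted p = 0.174). Of 11 other inward rectifiers 5 were tested. Kcnj12, which contributes to the resting inward rectifier current, fell from 10.7 ± 1.05 to 6.31 ± 1.59 CPM in WT (log2 −0.76, SE 0.129, adjusted p = 2.22e-04). In KO it fell by 0.48 (SE 0.131, adjusted p = 0.0182), and lost that call without KO isoproterenol replicate 4 or 5 (adjusted p up to 0.0640 over the alternatives).

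**Figure D5:**
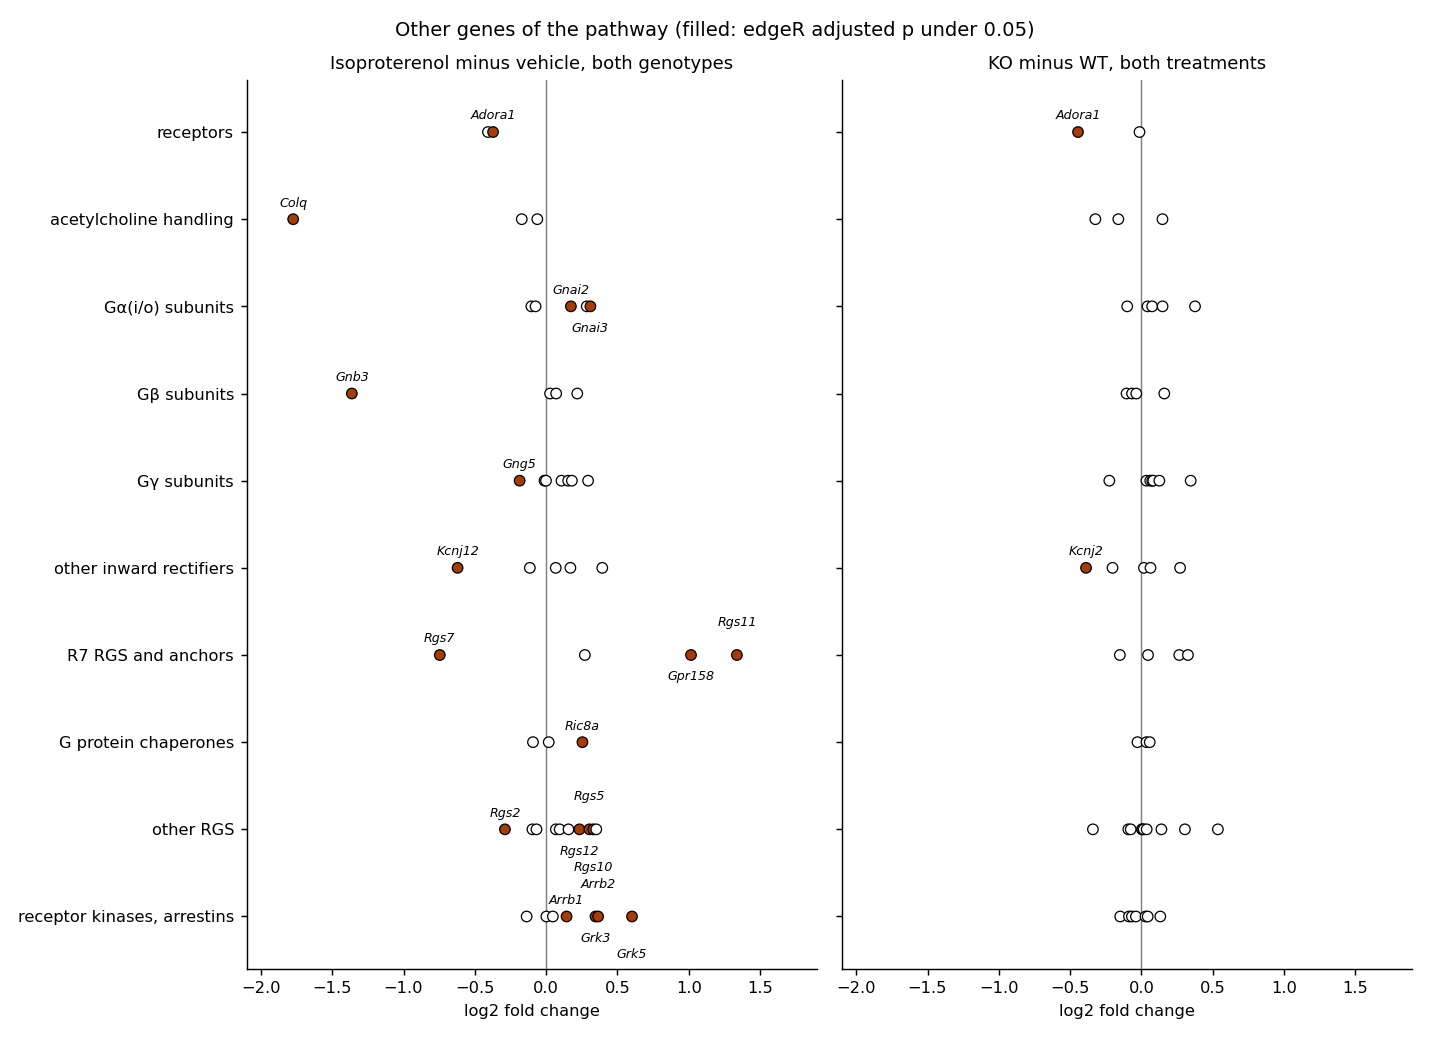
Log2 fold changes (horizontal axes) of the 50 tested pathway genes outside the 6, by role list (rows), for isoproterenol averaged over genotypes (left) and KO against WT averaged over treatments (right). Filled points passed the edgeR test, 12 higher and 7 lower on the left, and 2 lower on the right, Kcnj2 and Adora1.

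The genotype comparisons of the other pathway genes were tested, but their lists were chosen with earlier results of these data known, so that these tests are not independent of those results. Averaged over treatments 2 of 50 were lower in KO and 0 higher, beside 0.464% of all genes lower and 0.383% higher, or 0.847% in either direction. Kcnj2, the main subunit of the ventricular inward rectifier current, had means of 36.4 ± 3.88 and 38.6 ± 6.29 CPM in WT against 28.0 ± 3.80 and 29.1 ± 2.63 CPM in KO under vehicle and isoproterenol (SD, n = 5). In log2 units it fell by 0.39 (SE 0.0720, adjusted p = 0.00756) and kept the call in all 28 alternatives. Rgs2, another RGS gene, had −0.34 (SE 0.0832, adjusted p = 0.0523) and was also called with DESeq2, limma-voom, either other scaling, no filter, or without mitochondrially encoded genes. Adora1 fell by 0.44 (SE 0.101, adjusted p = 0.0323), with 9.15 ± 1.37 CPM in KO vehicle and 7.66 ± 1.79 CPM in KO isoproterenol libraries. It lost the call in 10 of 20 fits without 1 library (WT vehicle replicate 2, 3 or 5, WT isoproterenol replicate 2, 4 or 5, KO vehicle replicate 1 or 4, and KO isoproterenol replicate 1 or 4), with adjusted p up to 0.0715. Within each treatment edgeR called 0 of 50, beside 0.128% of all genes called under vehicle and 0.181% under isoproterenol. At an unadjusted p under 0.05 were 9 and 8 of the 50, beside 8.31% and 13.0% of all genes. DESeq2 called 1 in each, Adora1 under vehicle and Kcnj2 under isoproterenol, and limma-voom called Adora1 under vehicle.

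Tested genes near the 6 were compared as well. Within 500 kb, 8 tested genes surround Kcnj5 and 5 surround Rgs6. In the comparison averaged over treatments edgeR, DESeq2 and limma-voom called 0 of them, beside 0.847% of all genes in edgeR, and 1 of each set had an unadjusted p under 0.05, beside 12.8% of all genes. Of 10 tested neighbours of Gnb5, Myo5a, which encodes an unconventional myosin, was higher in KO by 0.22 (SE 0.0524, adjusted p = 0.0385; edgeR, Benjamini-Hochberg). Isoproterenol averaged over genotypes changed 8 of the 31 neighbours of the 6 genes, beside 18.8% of all genes. Raised were Gm37474 near Kcnj5 (log2 0.27), Myo5a near Gnb5 (0.31), and Rgs5 (0.30), Hsd17b7 (0.48) and Ddr2 (0.20) near Rgs4. Lowered were 9330158H04Rik at Chrm2 (−0.30), and Arpp19 (−0.16) and Myo5c (−0.31) near Gnb5, and none of those 8 lay near Rgs6.

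The genes most like Kcnj5 over the 20 libraries, by Pearson correlation of log2 CPM among 11581 genes, were Itpa (r = 0.855), Ogfod1 itself (0.842), Strip2 (0.831), Dcaf11 (0.816) and Apobec2 (0.812). For Rgs6 they were Apobec2 (0.801), Kcnj5 (0.778), Kcnq1 (0.746), Sergef (0.742) and Glrx2 (0.737). Kcnj5 and Rgs6 were chosen as lower in the knockout, so that their likeness to Ogfod1 and to each other follows in part from that choice. These correlations are descriptions. With group means removed, the correlation of Kcnj5 was −0.14 with Ogfod1 and 0.34 with Rgs6. For Kcnj5 it was then 0.55 with Itpa, 0.53 with Strip2, 0.55 with Dcaf11 and 0.53 with Apobec2. For Rgs6 it was 0.25 with Apobec2, 0.25 with Kcnq1, 0.61 with Sergef and 0.74 with Glrx2. For Chrm2 the most alike gene was Nebl (0.818), for Kcnj3 Afdn (0.788), for Gnb5 Abhd6 (0.778) and for Rgs4 Mob3a (0.925).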

How the data were processed

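Per the labels' protocols, RNA came from powdered mouse hearts and the library kit was a stranded one for total RNA. The deposited table holds raw counts per gene, made by the authors with HISAT2 2.1.0 and featureCounts 1.6.3 on GRCm38. The versions are per the submitters' processing notes, where R 3.6.0 and limma 3.40.6 are named too. The sources used here do not give the strand setting or annotation release. Groups come from the labels, 5 libraries in each of 4, and replicates were numbered in record order. The 6 genes and all gene lists were chosen with earlier results of these data known. Gene IDs were stripped of versions and matched to GENCODE vM21 (55154 of 55335).

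The analysis ran edgeR 4.0.16 in R 4.3.3 on the counts (filterByExpr, TMM scaling, 1 quasi-likelihood fit of all 20 libraries with a mean per group, 16 residual degrees of freedom, biological coefficient of variation 0.119). The threshold was 0.05 on p adjusted by Benjamini-Hochberg over all 14878 genes. SE is the standard error of a log2 fold change. The smallest count among the 6 genes was 91. Ratios within libraries were tested by exact permutation. Pathway genes named are, per comparison, those that passed, or the 8 with the smallest p where more did. Other pathway genes named were chosen after their values were seen. For likeness, the 5 genes with the highest correlation were taken, among named genes whose average log2 CPM was 0 or more. Within groups, no pair of libraries agreed within sampling noise (chi-square over degrees of freedom of at least 3.82), and each was counted as 1 sample.

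On simulated counts with 200 changed genes, the fit recovered 52% of 1.5-fold and 76% of 2-fold changes for isoproterenol in WT over 14769 genes, and 6 of 134 calls were false. For the average over genotypes it recovered 74% and 97% over 14701 genes, and 11 of 182 calls were false. The test of the difference between responses recovered 23% and 63% over 14725 genes, and 2 of 88 calls were false. Alternatives were DESeq2 1.42.0, limma-voom with quality weights (limma 3.58.1), 2 other scalings, other filters, removal of mitochondrially encoded genes, leaving out libraries, and fitting the compared groups alone. Promoter sequences are RefSeq's on GRCm38.p6, and figures were drawn with matplotlib 3.10.9.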

Additional observations from a re-analysis of the deposited data

Results flagged for a closer look

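Of 32 sets of 5 values tested for a library far from the other 4, 3 had one, where chance gives about 1 in 20. Kcnj3 measured 63.0 CPM in KO isoproterenol replicate 4, against 55.2 to 57.4 CPM in the other 4 libraries of the group. Kcnj5 measured 30.8 CPM in KO vehicle replicate 3, against 25.3 to 26.4 CPM in the others. Rgs4 measured 18.9 CPM in KO isoproterenol replicate 5, against 6.48 to 9.88 CPM in the others, and that library also had the highest smooth muscle, pericyte and fibroblast marker sums.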

How the results depend on the processing

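No paired analysis was possible because the labels carry no replicate numbers that pair libraries across groups. Where a value below turned or moved, the cause was not tested. Some values changed sign. Those of Gnb5, Kcnj3, Kcnj5 and Chrm2 were near 0, while that of Rgs4 under isoproterenol in KO was 0.26. Gnb5 under isoproterenol in KO was 0.0022 with limma-voom and 0.031 without both WT vehicle replicate 2 and KO isoproterenol replicate 5, and Rgs4 was −0.11 without both. The difference between responses for Chrm2 was 0.0092 with limma-voom and 0.035 without both. Leaving out 1 library each gave, for isoproterenol in WT, −0.011 to 0.057 for Kcnj3. In KO it gave −0.024 to 0.074 for Kcnj5, −0.049 to 0.030 for Gnb5 and −0.11 to 0.39 for Rgs4. For the difference it gave −0.077 to 0.020 for Chrm2 and −0.47 to 0.029 for Rgs4. The number of the 6 genes called in WT was 2 in a fit of only the 2 groups and 0 to 1 when 1 library was left out. On average over genotypes it was 1 with limma-voom, 1 without both libraries and 0 to 1 when 1 was left out. The Rgs6 to Gnb5 log2 ratio in WT rose by 0.44 without both (adjusted p = 0.0635) and by 0.35 to 0.44 when 1 library was left out. Pathway genes called for KO against WT under vehicle numbered 1 with DESeq2, limma-voom, only the 2 groups or without both, 3 with no filter on low counts, and 0 to 1 when 1 library was left out. Under isoproterenol they numbered 1 with DESeq2 and 2 with no filter. Averaged, they numbered 4 with no filter, 3 (Rgs2 added) with DESeq2, limma-voom, RLE or upper quartile scaling or without mitochondrially encoded genes, and 1 to 3 when 1 library was left out. Over all genes, the calls under vehicle were 19, against 61 with DESeq2, 43 with limma-voom, 117 with no filter, 38 without both and 10 to 35 when 1 library was left out. Under isoproterenol they were 27, against 128, 81, 250, 50 and 10 to 55 in the same order. Averaged, they were 126, against 226 with DESeq2, 350 with no filter, 175 without both and 74 to 143 when 1 was left out. For the difference they were 0 (1142 at an unadjusted p under 0.05), against 5 with DESeq2, 34 with no filter, 4 without both and 0 to 1 when 1 was left out. Rgs4 and Gnb5 had the lowest counts, down to 91 and 128, so that counting error is largest for them.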
